A study of Mus musculus with 6 samples.

Results

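The endosomal sorting complexes required for transport (ESCRT) are protein assemblies that bend membranes away from the cytosol and cut them. The 32 genes described here encode ESCRT-0, ESCRT-I, ESCRT-II, ESCRT-III, the VPS4 ATPases with their cofactor, and the adaptors and ubiquitin hydrolases that work with them. They were chosen by gene symbol, with no threshold on their values. All 32 were found among the 23207 symbols of the deposited count table, and all passed the filter on low counts that left 19745 genes for testing. The RNA came from the spleen of Apoe-knockout mice, a standard model of atherosclerosis, from cells labelled endothelial, with 1 library per mouse. A group of 3 mice (1603, 1604 and 1607) had received an antisense oligonucleotide (ASO) against Mlkl, and another 3 mice (1601, 1602 and 1608) a control ASO. In both groups the ASO was given for 8 weeks together with a diet rich in cholesterol. All 6 mice thus shared the Apoe deletion and the diet, and the only labelled difference was the ASO. The sources used here state neither the age and sex of the mice nor how the cells were isolated.

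MLKL is the protein that ruptures the plasma membrane in necroptosis, a regulated form of cell death. ESCRT-III is known to gather where active MLKL has damaged the membrane and to shed the damaged parts, which delays or prevents the death of the cell. The same machinery sorts ubiquitinated receptors into endosomes, reseals the nuclear envelope and cuts the last bridge between dividing cells. ESCRT-0 and ESCRT-I recognise cargo, ESCRT-II or the adaptor ALIX connects them to ESCRT-III, the subunits of ESCRT-III polymerise into the cutting filament, and VPS4 takes the filament apart. The comparison asks whether the genes of this machinery were expressed at another level in mice whose Mlkl had been targeted.

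Library totals ran from 59988846 to 87776706 estimated counts. Levels are given as CPM, counts brought to a common library total with TMM scaling, and values of single mice are always in the order 1603, 1604 and 1607 for MLKL ASO and 1601, 1602 and 1608 for control ASO. Mlkl measured 7.53, 5.81 and 3.74 CPM in MLKL ASO mice, against 30.7, 31.2 and 38.0 CPM in control ASO mice. The targeted gene was lower in each mouse labelled MLKL ASO (log2 fold change -2.55, SE 0.27, 95% interval -3.18 to -1.92; edgeR unadjusted p = 2.32e-05, adjusted p = 0.0655; exact two-sided permutation p = 0.1, the smallest that 3 against 3 allow). Pecam1, an adhesion molecule and 1 of the 12 endothelial markers used here, averaged 362 ± 46.1 CPM in MLKL ASO mice and 331 ± 51.6 CPM in control ASO mice (SD, n = 3 each). All 12 endothelial markers were detected in every library, and 8 of them had a log2 fold change (MLKL ASO minus control ASO) below 0, with a median of -0.13. Pecam1 was not among these 8 and had a log2 fold change of 0.13. Over the 12 markers, mean log2 CPM was 7.43, 7.31 and 7.36 in MLKL ASO mice, against 6.94, 7.39 and 7.84 in control ASO mice. Mouse 1608 was thus the highest and mouse 1601 the lowest of all mice. How far the 8 markers below 0 rest on mouse 1608 was not tested. Blood cell RNA was abundant: globin genes took 7.17% to 15.1% of counts in MLKL ASO mice and 4.77% to 11.7% in control ASO mice. Ighm, an immunoglobulin chain of B cells, measured 3427, 2631 and 2703 CPM in MLKL ASO mice, against 8619, 5972 and 3096 CPM in control ASO mice, more than Pecam1 in every library. In bulk RNA fewer cells of a type and less RNA per cell cannot be told apart. Control mouse 1608 stood apart, with a mean log2 CPM of 2.85 over 10 megakaryocyte and platelet markers, where the other mice lay between 5.93 and 7.07. Control mouse 1601 had the highest mean levels of T and NK cell, B cell, plasma cell, macrophage and dendritic cell markers.

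Upstream sequences are shown for genes at both ends of the pathway: Tsg101 and Pdcd6ip (ALIX), which bring ESCRT-III to a membrane, and Vps4a and Vps4b, the paired ATPases that disassemble it. Each is the 250 bases before the RefSeq start of the gene (GRCm38.p6), printed 5′ to 3′ on the strand of the gene. Capitals mark matches on either strand to the cAMP response element TGACGTCA, the AP-1 site TGACTCA, the E-box CACGTG, the ETS site CCGGAAG or the GC box GGGCGG. The windows are chr7:46919970-46920219 on the minus strand for Tsg101, chr9:113708260-113708509 on the minus strand for Pdcd6ip, chr8:107031019-107031268 on the plus strand for Vps4a and chr1:106796726-106796975 on the minus strand for Vps4b.
Tsg101: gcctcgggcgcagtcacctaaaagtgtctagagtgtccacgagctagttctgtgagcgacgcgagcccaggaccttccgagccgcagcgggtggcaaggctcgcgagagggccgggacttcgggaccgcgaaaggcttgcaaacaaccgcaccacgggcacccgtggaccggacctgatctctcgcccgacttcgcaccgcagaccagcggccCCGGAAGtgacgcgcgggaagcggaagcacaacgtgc
Pdcd6ip: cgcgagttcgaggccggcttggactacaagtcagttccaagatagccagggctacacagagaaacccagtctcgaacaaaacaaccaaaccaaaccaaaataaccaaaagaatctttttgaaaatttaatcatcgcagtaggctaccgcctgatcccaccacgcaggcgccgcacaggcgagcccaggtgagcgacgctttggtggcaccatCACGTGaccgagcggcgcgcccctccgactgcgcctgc
Vps4a: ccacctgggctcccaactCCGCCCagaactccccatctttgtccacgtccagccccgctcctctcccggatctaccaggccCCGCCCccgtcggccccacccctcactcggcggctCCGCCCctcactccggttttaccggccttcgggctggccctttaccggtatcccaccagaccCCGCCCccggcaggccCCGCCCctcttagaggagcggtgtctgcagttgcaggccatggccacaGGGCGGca
Vps4b: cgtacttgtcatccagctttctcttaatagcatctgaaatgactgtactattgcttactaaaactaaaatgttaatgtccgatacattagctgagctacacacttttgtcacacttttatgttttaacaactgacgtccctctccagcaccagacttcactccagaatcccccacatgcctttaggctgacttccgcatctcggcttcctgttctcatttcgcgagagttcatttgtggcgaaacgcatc
The window of Vps4a was 70.8% G and C and held 6 GC boxes, whereas that of Vps4b was 43.2% G and C and matched none of the 5 motifs. The window of Tsg101 (66.8% G and C) held an ETS match and that of Pdcd6ip (56.0%) an E-box. RefSeq windows were matched for 24 of the 32 members (26 windows), and not for Vps28, Vps37a, Vps37b, Snf8, Chmp1b, Chmp4c, Chmp6 and Chmp7. A GC box stood in 46.2% of the members' windows and in 32.7% of all 32851 windows of that length. For the ETS site the shares were 11.5% and 6.91%, for the E-box 3.85% and 6.02%, for the AP-1 site 3.85% and 4.46%, and for the cAMP response element 0% and 1.55%. A match describes letters in the window and not a bound site.

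As a set, the ESCRT genes had no common direction of difference between the groups. Of the 32 members, 17 had a log2 fold change (MLKL ASO minus control ASO) above 0 and 15 below 0, with a median of 0.01, while 48.8% of all tested genes lay above 0 with a median of -0.01. No member passed an adjusted p of 0.05 in edgeR's quasi-likelihood test: 0 were higher and 0 lower, where 0.00506% of all genes passed as higher and 0.00506% as lower. Mlkl itself did not pass, so the lack of calls says little about the members. At an unadjusted p under 0.05, 1 member was higher (Chmp4c) and 2 were lower (Vps37b and Chmp7), against 4.89% of all genes higher and 6.96% lower. The higher count was 3 without mouse 1608, where 6.53% of all genes were higher. It was 0 without mouse 1601 (6.91% of all genes), 1602 (3.79%), 1603 (3.12%) or 1607 (3.59%). The lower count was 4 without mouse 1602, where 6.38% of all genes were lower. The CPM of the groups did not overlap in 4 members that were higher with the MLKL ASO (Chmp4c, Tsg101, Chmp1b and Vps4b) and in 2 that were lower (Vps37b and Chmp7). Over all genes these shares were 9.02% higher and 9.71% lower.

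Other tools gave few calls as well. DESeq2 called 1 member lower (Vps37b) and 0 higher, where it called 1.48% of all genes lower and 1.14% higher. limma-voom with sample weights called 0 members, where it called 0.0658% of genes lower and 0.0456% higher, and at an unadjusted p under 0.05 it had 2 members higher and 3 lower, beside 8.54% of genes higher and 9.17% lower. In the authors' deposited table, which rests on the same libraries, Vps37b passed as lower and 0 members passed as higher, beside 0.934% of its genes lower and 0.872% higher.

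**Figure D1:**
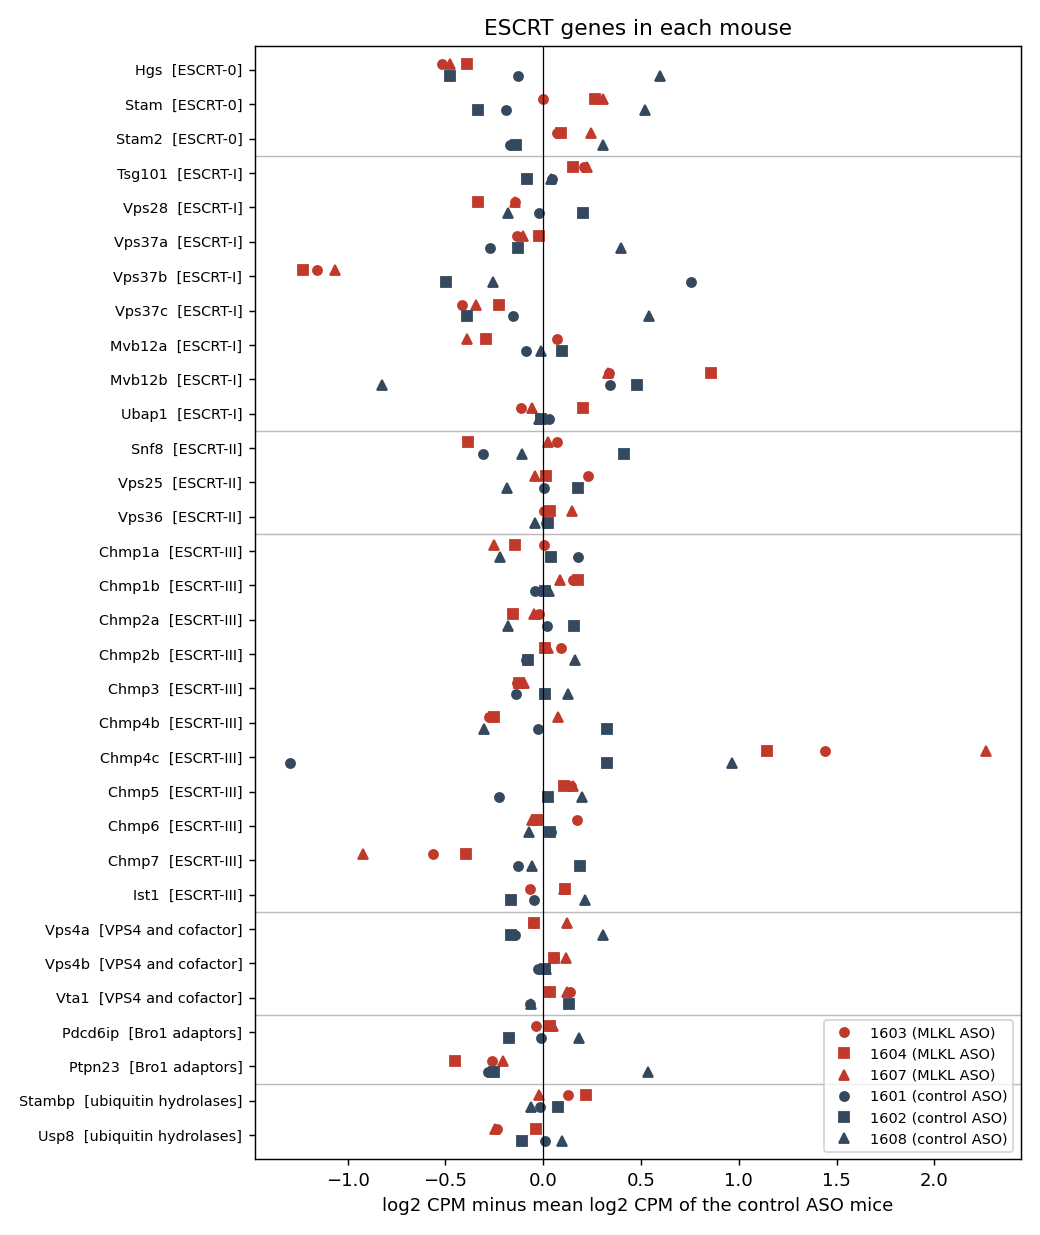
Level of each of the 32 ESCRT genes in each mouse, as log2 CPM minus the mean log2 CPM of the 3 control ASO mice (x axis), with genes grouped by complex (y axis); red symbols are MLKL ASO mice and dark symbols control ASO mice. Most genes scatter around 0 in both groups, and the MLKL ASO mice lie left of the control mice in Vps37b and Chmp7 and right of them in Chmp4c.

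For most of the machinery the data bound the difference closely. The 95% interval of the fold change, taken gene by gene, lay within 1.5-fold in both directions for 22 of the 32 members (68.8%) and within 2-fold for 27 (84.4%). Over all tested genes the shares were 26.7% and 50.3%. Over the 12574 genes with a mean of at least 2.5 CPM, which is the lowest mean of a member over all mice, they were 42.0% and 74.5%. The median size of the log2 fold change, regardless of sign, was 0.12 in the members and 0.26 in all genes. In the 12574 genes it was 0.20. The cut at 2.5 CPM rests on the member with the lowest mean, so these genes and the members were not matched for level. The 10 members with wider intervals were Hgs, Stam, Vps37b, Vps37c, Mvb12b, Snf8, Chmp4b, Chmp4c, Chmp7 and Ptpn23.

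**Figure D2:**
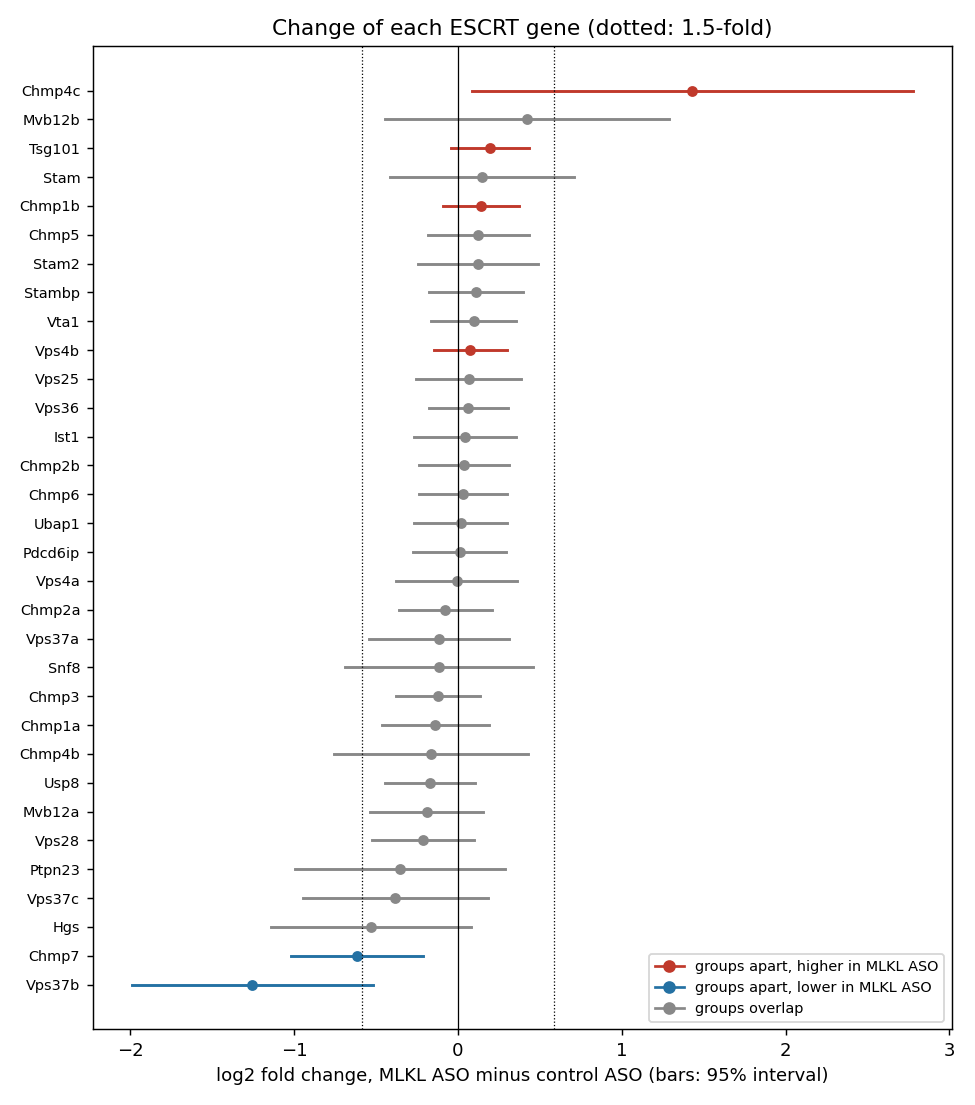
Log2 fold change of each ESCRT gene, MLKL ASO minus control ASO (x axis), with its 95% interval as a bar, ordered by size (y axis); colours mark genes whose groups did not overlap. Dotted lines mark a 1.5-fold difference, and the intervals of Vps37b, Chmp7 and Chmp4c leave out 0.

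ESCRT-0, which collects ubiquitinated cargo on endosomes, is made of Hgs (HRS) with Stam or Stam2. Hgs, the subunit that binds the endosomal lipid PI3P, measured 31.8, 34.7 and 32.6 CPM in MLKL ASO mice, against 41.6, 32.7 and 68.9 CPM in control ASO mice. Control mouse 1608 lay far above the other 5 mice, and the groups overlapped. With all mice the log2 fold change was -0.53 (edgeR adjusted p = 0.469, 0.311 to 0.734 over the alternatives), and without mouse 1608 it was -0.17. Hgs is given in full because of that dependence, after its values were seen. Stam, an adaptor with an SH3 domain, averaged 27.6 ± 3.07 CPM in MLKL ASO mice and 24.9 ± 8.41 CPM in control ASO mice (SD, n = 3 each). Its paralogue Stam2 averaged 52.8 ± 3.49 CPM in MLKL ASO mice and 48.5 ± 9.32 CPM in control ASO mice, again with overlap.

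ESCRT-I held the member with the lowest log2 fold change of the 32. Vps37b, one of the interchangeable VPS37 subunits, measured 50.5, 47.9 and 53.7 CPM in MLKL ASO mice, against 189.5, 79.6 and 94.0 CPM in control ASO mice. The MLKL ASO values lay close together and below every control value, and mouse 1601 lay far above the other control mice. The control level was 2.39-fold that of MLKL ASO mice (log2 fold change -1.26, SE 0.31, 95% interval -1.99 to -0.52; edgeR unadjusted p = 0.00471, adjusted p = 0.315). DESeq2 gave an adjusted p of 0.0118, and over all alternatives the adjusted p ran from 0.0118 to 0.701. The authors' deposited table lists a log2 fold change of -1.20 and an adjusted p of 0.0198. Without mouse 1601 the log2 fold change was -0.79 (edgeR unadjusted p = 0.000605, adjusted p = 0.165).

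Markers of T and NK cells were lower with the MLKL ASO as well. All 10 genes of that list had a log2 fold change below 0 (median -1.19), and 9 of them did not overlap between the groups, where 9.71% of all genes were lower without overlap. None was at 0 in any library, and their summed level was 185 to 243 CPM in MLKL ASO mice and 259 to 649 CPM in control ASO mice, highest in mouse 1601. Trbc2, which encodes part of the T cell receptor, measured 24.2, 28.9 and 24.7 CPM in MLKL ASO mice, against 118, 56.0 and 34.9 CPM in control ASO mice. With the mean level of the list as a covariate, an alternative added after seeing the data, the log2 fold change of Vps37b was -0.38 (edgeR unadjusted p = 0.242, adjusted p = 0.61). The mean levels of B cell, plasma cell, dendritic cell and macrophage markers were highest in mouse 1601 too. Those of erythroid, megakaryocyte and platelet, and neutrophil markers were highest in MLKL ASO mouse 1604. B cell markers lay below 0 in 10 of 10 cases (median -0.80), with a summed level of 3402 to 4427 CPM in MLKL ASO mice and 4169 to 11120.0 CPM in control ASO mice. Plasma cell markers lay below 0 in 7 of 7 cases (median -0.66), with 1280.0 to 1519 CPM in MLKL ASO mice and 1426 to 3167 CPM in control ASO mice, and dendritic cell markers in 6 of 7 (median -0.53), with 290.1 to 357 CPM in MLKL ASO mice and 403 to 641 CPM in control ASO mice. None of these markers was at 0 in any library, and the part of these cells in the level of Vps37b was not tested. The level of the T and NK cell list did not itself overlap between the groups, so with 6 mice its part and that of the ASO cannot be told apart.

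The transcript of Vps37b also overlaps another gene. In the GENCODE M21 annotation, 45.1% of its 31-base words occur on the opposite strand of other transcripts. Hip1r, which encodes an endocytic adaptor, shares the most. Hip1r measured 8.93, 8.49 and 13.7 CPM in MLKL ASO mice, against 22.3, 13.4 and 16.8 CPM in control ASO mice, with overlap (log2 fold change -0.75, SE 0.27, 95% interval -1.38 to -0.13; edgeR unadjusted p = 0.0239, adjusted p = 0.376). Per the labels the library kit was directional, but the sources used here do not state whether the counting used strand. If it did not, reads of the shared stretch cannot be told apart.

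The values of the other VPS37 subunits overlapped between the groups. Vps37a averaged 56.1 ± 2.29 CPM in MLKL ASO mice and 60.8 ± 15.5 CPM in control ASO mice (SD, n = 3 each). Vps37c averaged 24.0 ± 1.57 CPM in MLKL ASO mice and 31.3 ± 11 CPM in control ASO mice. Mouse 1608 was the highest control mouse in both, at 78.4 CPM for Vps37a and 43.8 CPM for Vps37c. Within a library, the log2 ratio of the counts of Vps37a to those of Vps37b was 0.11, 0.29 and 0.04 in MLKL ASO mice, against -1.94, -0.55 and -0.26 in control ASO mice. It was above 0 in every MLKL ASO mouse and below 0 in every control mouse (difference 1.06, exact two-sided permutation p = 0.1, the smallest possible, and 0.45 adjusted over 9 pairs). Vps37a itself had a log2 fold change of -0.11, so the ratio largely restates the difference in Vps37b.

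Tsg101, the ESCRT-I subunit that binds ubiquitin and ALIX, measured 109, 105 and 109.7 CPM in MLKL ASO mice, against 97.0, 88.8 and 96.6 CPM in control ASO mice. Each MLKL ASO value was above each control value, by a small step (fold change 1.15, 95% interval 0.972 to 1.35; edgeR adjusted p = 0.496). On the same strand, 37.4% of the 31-base words of Tsg101 also occur in transcripts of other genes. The processed pseudogene Tsg101-ps shares the most, so the counts of Tsg101 are uncertain in part.

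The remaining ESCRT-I genes overlapped between the groups. Vps28, the subunit that links to ESCRT-II, averaged 205 ± 15.2 CPM in MLKL ASO mice and 238 ± 32 CPM in control ASO mice (SD, n = 3 each). MVB12 and UBAP1 proteins are alternative accessory subunits of the complex. Mvb12a averaged 61.7 ± 10.6 CPM in MLKL ASO mice and 70.5 ± 4.64 CPM in control ASO mice. Mvb12b averaged 4.94 ± 1.09 CPM in MLKL ASO mice and 3.68 ± 1.53 CPM in control ASO mice and was lowest in mouse 1608, at 1.93 CPM. Ubap1 averaged 80.0 ± 9.7 CPM in MLKL ASO mice and 79.0 ± 1.53 CPM in control ASO mice.

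ESCRT-II, the bridge from ESCRT-I to ESCRT-III, had log2 fold changes between -0.11 and 0.06 in its 3 genes, all with overlap. Vps36, its ubiquitin-binding and lipid-binding subunit, averaged 62.2 ± 3.26 CPM in MLKL ASO mice and 59.5 ± 1.48 CPM in control ASO mice (SD, n = 3 each). Vps25, the subunit that contacts CHMP6, averaged 136 ± 13.9 CPM in MLKL ASO mice and 130.2 ± 16.3 CPM in control ASO mice. Snf8 (VPS22) averaged 8.78 ± 1.44 CPM in MLKL ASO mice and 9.5 ± 2.54 CPM in control ASO mice. Of the 31-base words of Vps25, 63.2% also occur in transcripts of other genes, and a transcript annotated to its neighbour Ramp2 shares the most. For Snf8 the share was 29.5%, and a pseudogene shares the most. The counts of both are therefore uncertain.

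Among the 11 ESCRT-III genes, 6 lay above 0 and 5 below, and Chmp7 and Chmp4c stood out in opposite directions. Chmp7, the subunit that starts ESCRT-III assembly at the nuclear envelope, measured 27.3, 30.7 and 21.3 CPM in MLKL ASO mice, against 36.9, 45.9 and 38.7 CPM in control ASO mice. Every MLKL ASO value lay below every control value. The control level was 1.53-fold that of MLKL ASO mice (log2 fold change -0.62, SE 0.17, 95% interval -1.02 to -0.22; edgeR unadjusted p = 0.00801, adjusted p = 0.327). DESeq2 gave an adjusted p of 0.0804 and the authors' deposited table one of 0.145, and over the alternatives run here it ran from 0.0804 to 0.648. With each mouse left out in turn the log2 fold change lay between -0.75 and -0.49. With the T and NK cell covariate it was -0.66. None of its 31-base words occurs in another annotated gene.

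Chmp4c, a paralogue of Chmp4b known from the checkpoint that delays the final cut between daughter cells, was expressed at a low level. It measured 3.05, 2.49 and 5.4 CPM in MLKL ASO mice, against 0.459, 1.41 and 2.2 CPM in control ASO mice. The underlying estimated counts were 188, 165 and 478 in MLKL ASO mice and 37, 117 and 155 in control ASO mice. The lowest MLKL ASO value lay just above the highest control value, and mouse 1601 lay below all others. The fitted difference had a wide interval (log2 fold change 1.43, SE 0.57, 95% interval 0.09 to 2.77; edgeR unadjusted p = 0.0399, adjusted p = 0.404). The log2 fold change was 1.0 without mouse 1601 (edgeR unadjusted p = 0.053) and 1.02 without mouse 1607 (edgeR unadjusted p = 0.151). With the T and NK cell covariate it was -0.0017, and with the mean level of 12 erythroid markers as a covariate 2.83 (edgeR adjusted p = 0.148, 0.148 to 0.999 over the alternatives).

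Chmp4b, whose product forms the body of the cutting filament, measured 3.36, 3.43 and 4.29 CPM in MLKL ASO mice, against 4.0, 5.1 and 3.31 CPM in control ASO mice. The groups overlapped (fold change 0.893, 95% interval 0.593 to 1.35; edgeR adjusted p = 0.839). The log2 ratio of the counts of Chmp4b to those of Chmp4c was 0.14, 0.46 and -0.33 in MLKL ASO mice, against 3.11, 1.85 and 0.59 in control ASO mice. The groups did not overlap in this ratio (difference -1.76; exact two-sided permutation p = 0.1, the smallest possible, and 0.45 adjusted over 9 pairs). Apart from Chmp4c, Chmp4b had the lowest group means of the ESCRT-III genes, 3.69 CPM in MLKL ASO mice and 4.14 CPM in control ASO mice. Among the rows of the authors' deposited table, 31121 carry no symbol. Whether reads of Chmp4b lie in such a row was not tested. If they do, the level of Chmp4b and its ratio to Chmp4c are understated here.

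**Figure D3:**
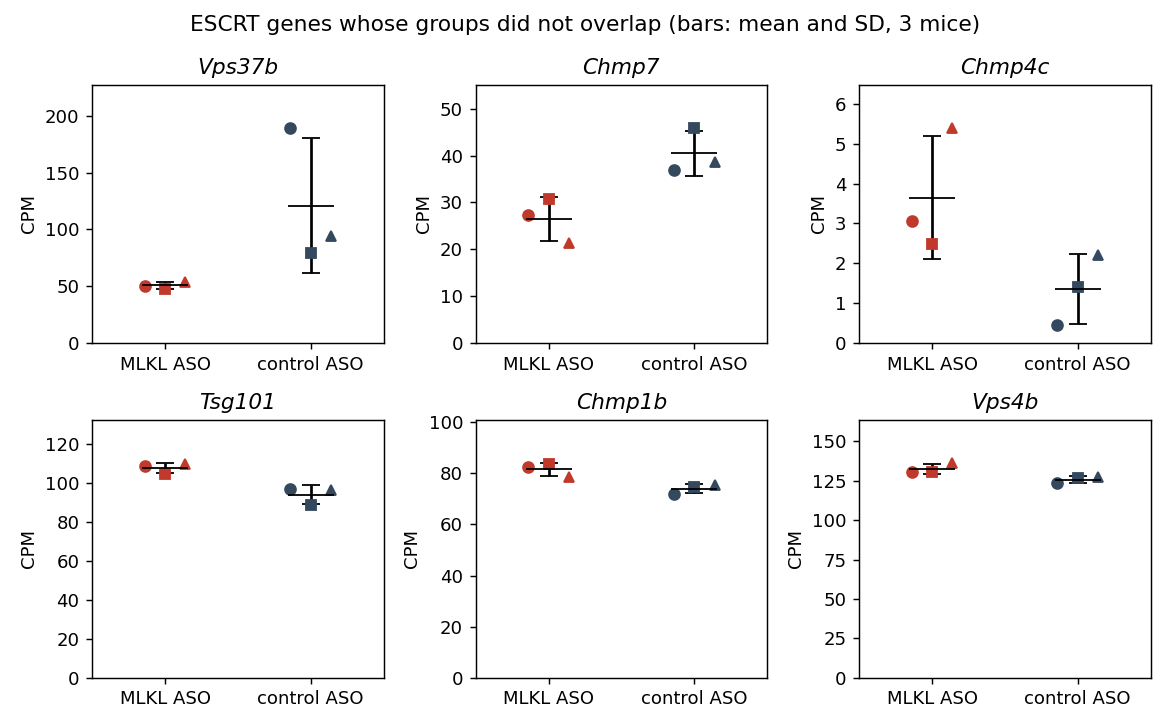
CPM of the 6 ESCRT genes whose groups did not overlap, with MLKL ASO mice on the left and control ASO mice on the right of each panel (y axes start at 0); symbols are mice, and bars give the mean and SD of 3 mice. The steps between the groups in Tsg101, Chmp1b and Vps4b are small beside those in Vps37b, Chmp7 and Chmp4c.

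Chmp1b, a late subunit that recruits partners of VPS4, measured 82.4, 83.7 and 78.6 CPM in MLKL ASO mice, against 72.0, 74.6 and 75.6 CPM in control ASO mice. The groups did not overlap, and the step was small (fold change 1.1, 95% interval 0.937 to 1.29; edgeR adjusted p = 0.618). Of the 31-base words of Chmp1b, 23.1% occur on the opposite strand of other transcripts, and an antisense transcript shares the most. Its paralogue Chmp1a measured 129, 117 and 108 CPM in MLKL ASO mice, against 146, 133 and 111 CPM in control ASO mice, with overlap (fold change 0.909, 95% interval 0.726 to 1.14; edgeR adjusted p = 0.733). The log2 ratio of Chmp1a to Chmp1b overlapped between the groups (difference -0.27; exact two-sided permutation p = 0.2, adjusted over pairs 0.45).

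The subunits that complete and narrow the filament overlapped between the groups. Chmp3 measured 122, 123 and 126 CPM in MLKL ASO mice, against 122, 135 and 147 CPM in control ASO mice (fold change 0.919, 95% interval 0.769 to 1.1; edgeR adjusted p = 0.695). Its partner Chmp2a measured 201, 183 and 197 CPM in MLKL ASO mice, against 207, 227 and 180.0 CPM in control ASO mice (fold change 0.947, 95% interval 0.778 to 1.15; edgeR adjusted p = 0.838). Both intervals stayed within 1.5-fold. Chmp2b, the paralogue of Chmp2a, averaged 63.3 ± 1.92 CPM in MLKL ASO mice and 61.7 ± 6.29 CPM in control ASO mice (SD, n = 3 each). Ist1, which binds VPS4 and joins the late filament, measured 114, 129 and 128 CPM in MLKL ASO mice, against 115, 106 and 138 CPM in control ASO mice (fold change 1.03, 95% interval 0.831 to 1.28; edgeR adjusted p = 0.932). In Ist1 mouse 1608 was the highest and mouse 1602 the lowest of all 6. Chmp5, which binds the VPS4 cofactor, averaged 109.5 ± 1.97 CPM in MLKL ASO mice and 101 ± 14.7 CPM in control ASO mice. Chmp6, the subunit that ESCRT-II engages, averaged 62.2 ± 5.63 CPM in MLKL ASO mice and 60.9 ± 2.61 CPM in control ASO mice.

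The VPS4 ATPases pull subunits out of the filament and recycle them. Vps4a, whose GC-rich upstream window is printed above, measured 46.6, 46.6 and 52.4 CPM in MLKL ASO mice, against 43.7, 43.1 and 59.7 CPM in control ASO mice, with overlap (fold change 0.995, 95% interval 0.77 to 1.29; edgeR adjusted p = 0.993). Vps4b measured 131, 131 and 137 CPM in MLKL ASO mice, against 124, 127 and 127 CPM in control ASO mice. Each MLKL ASO value of Vps4b was above each control value, by a small step (fold change 1.05, 95% interval 0.903 to 1.23; edgeR adjusted p = 0.794). The log2 ratio of Vps4a to Vps4b was -1.49, -1.49 and -1.38 in MLKL ASO mice, against -1.50, -1.56 and -1.09 in control ASO mice, with a difference of -0.07 (exact two-sided permutation p = 1). The cofactor Vta1 (LIP5) averaged 66.6 ± 2.43 CPM in MLKL ASO mice and 62.3 ± 5.05 CPM in control ASO mice (SD, n = 3 each).

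The Bro1 adaptors reach ESCRT-III without ESCRT-II. Pdcd6ip (ALIX), which binds CHMP4 and is recruited to membrane wounds by the calcium sensor ALG-2, measured 125, 131 and 132 CPM in MLKL ASO mice, against 127, 113 and 145 CPM in control ASO mice. The control values lay on both sides of those with the MLKL ASO (fold change 1.01, 95% interval 0.826 to 1.23; edgeR adjusted p = 0.986). Ptpn23 (HD-PTP), an adaptor of receptor sorting, averaged 5.44 ± 0.473 CPM in MLKL ASO mice and 6.95 ± 2.4 CPM in control ASO mice (SD, n = 3 each) and reached 9.72 CPM in mouse 1608. Stambp (AMSH), a hydrolase that strips ubiquitin from cargo, averaged 30.0 ± 2.48 CPM in MLKL ASO mice and 27.8 ± 1.36 CPM in control ASO mice. Usp8, the other such hydrolase, averaged 71.2 ± 5.96 CPM in MLKL ASO mice and 80.2 ± 5.71 CPM in control ASO mice. All of these overlapped between the groups.

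**Figure D4:**
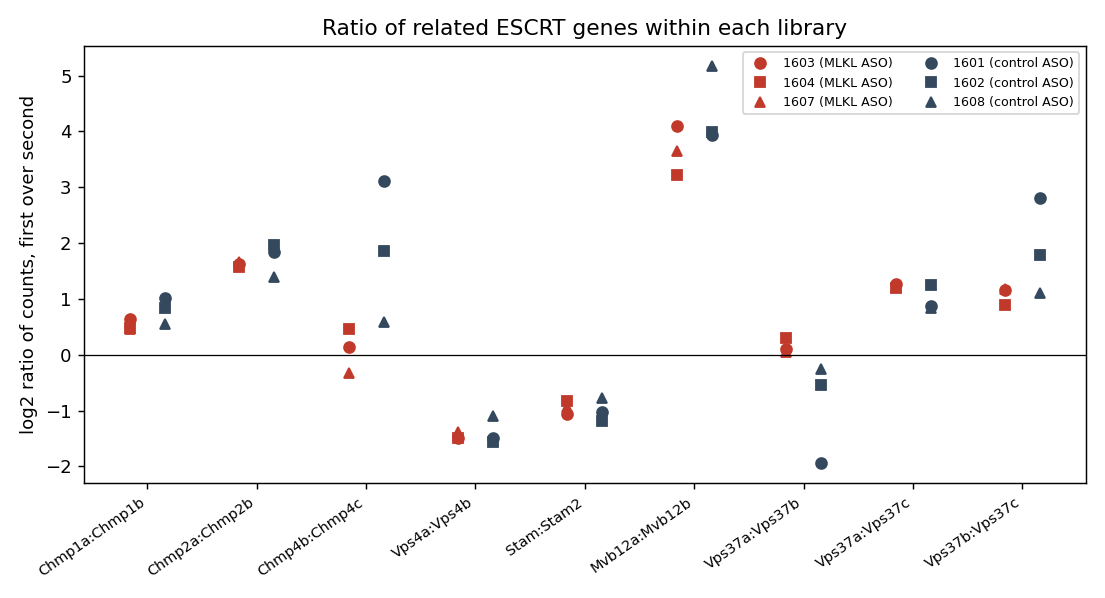
Log2 ratio of the counts of 9 pairs of related ESCRT genes within each library (y axis), with MLKL ASO mice in red on the left and control ASO mice dark on the right of each pair (x axis). The groups do not overlap in Chmp4b:Chmp4c and Vps37a:Vps37b and overlap in the other 7 pairs.

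A ratio within a library does not depend on how libraries are scaled. It uses the same counts as the levels of its genes and is not a separate result. The ratios without overlap, Vps37a:Vps37b and Chmp4b:Chmp4c, largely restate the differences given for Vps37b and Chmp4c. Beyond the pairs given above, the difference of the log2 ratio was -0.12 for Chmp2a to Chmp2b, 0.06 for Stam to Stam2 and -0.71 for Mvb12a to Mvb12b. It was 0.24 for Vps37a to Vps37c and -0.82 for Vps37b to Vps37c. The exact two-sided permutation p of these 5 pairs ran from 0.3 to 0.8. With 3 mice in each group no pair could have gone below 0.1.

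Divided by transcript length, the members covered a wide range of levels. In CPM per kilobase of the median coding transcript in GENCODE M21, the group mean of Chmp2a was 234 in MLKL ASO mice and 247 in control ASO mice, and that of Vps28 221 in MLKL ASO mice and 257 in control ASO mice. Vps25 followed at 155 in MLKL ASO mice and 149 in control ASO mice, then Chmp5 at 72.1 in MLKL ASO mice and 66.2 in control ASO mice and Chmp3 at 67.7 in MLKL ASO mice and 73.8 in control ASO mice. Neighbours in that order, such as Chmp5 and Chmp3, trade places between the groups. The lowest levels per kilobase were those of Chmp4c, at 0.59 in MLKL ASO mice and 0.219 in control ASO mice, and Mvb12b, at 0.988 in MLKL ASO mice and 0.736 in control ASO mice. Ptpn23 stood at 1.02 in MLKL ASO mice and 1.3 in control ASO mice and Chmp4b at 2.29 in MLKL ASO mice and 2.56 in control ASO mice. The sources used here do not name the annotation used for counting, and the lengths are therefore approximate. For Chmp4b the limit given above, on rows without a symbol, applies here too.

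Mouse 1608 set many of the extremes among the members. It held the highest value of the 6 mice in 13 of the 32 members (40.6%), and in 21.9% of all genes. These were Hgs, Stam, Stam2, Vps37a, Vps37c, Chmp2b, Chmp3, Chmp5, Ist1, Vps4a, Pdcd6ip, Ptpn23 and Usp8. The same mouse was lowest in 7 members (21.9%) and in 24.1% of all genes. Mouse 1601 was highest in 2 members (6.25%) and in 21.3% of all genes, and lowest in 9 members (28.1%) and 19.6% of all genes. The SD of log2 CPM was smaller in MLKL ASO mice than in control ASO mice for 23 members (71.9%), and for 69.2% of all genes. Its median over the members was 0.10 in MLKL ASO mice and 0.19 in control ASO mice, and over all genes 0.22 and 0.35 in that order.

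Whether the summed level of the machinery overlapped between the groups depended on Vps37b. The mean log2 CPM of the 32 members was 5.55, 5.55 and 5.57 in MLKL ASO mice and 5.50, 5.57 and 5.66 in control ASO mice, with overlap. Their summed CPM was 2329, 2280.0 and 2301 in MLKL ASO mice and 2426, 2402 and 2464 in control ASO mice, without overlap. Leaving out Vps37b, the sums were 2279, 2232 and 2247 in MLKL ASO mice and 2236, 2322 and 2370.0 in control ASO mice, which overlap. The overlap came from control mouse 1601, while 1602 and 1608 still lay above every MLKL ASO mouse.

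**Figure D5:**
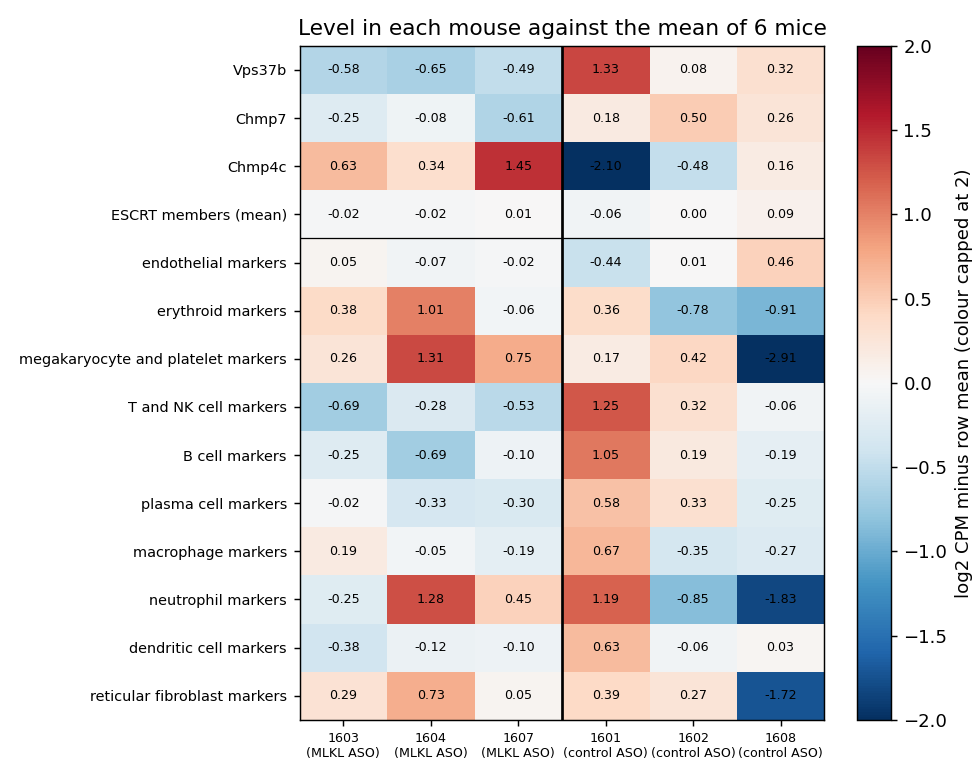
Level in each mouse, as log2 CPM minus the mean of the 6 mice (colour and printed value), for Vps37b, Chmp7, Chmp4c, the mean of the 32 ESCRT genes and 10 lists of cell type markers; MLKL ASO mice are the left 3 columns and control ASO mice the right 3. Vps37b and the T and NK cell markers are highest in control mouse 1601 and below 0 in all MLKL ASO mice. The same holds for the B cell, plasma cell and dendritic cell markers. The mean of the ESCRT genes stays between -0.06 and 0.09.

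Genes that work beside the ESCRT machinery were described as 6 lists, in which 0 genes passed the adjusted threshold in edgeR. Calcium-triggered membrane repair had 8 of 21 tested genes above 0 (median log2 fold change -0.09). At an unadjusted p under 0.05, 0 of them were higher and 1 was lower (4.89% and 6.96% of all genes). Anxa6, an annexin that caps wounded membrane, measured 107, 90.8 and 91.3 CPM in MLKL ASO mice, against 172, 126 and 113 CPM in control ASO mice. It was lower in each MLKL ASO mouse than in any control mouse (log2 fold change -0.51, SE 0.18, 95% interval -0.92 to -0.09; edgeR unadjusted p = 0.0227, adjusted p = 0.372). Anxa2, another annexin of membrane repair, averaged 313 ± 47.7 CPM in MLKL ASO mice and 254 ± 14.8 CPM in control ASO mice (SD, n = 3 each; edgeR adjusted p = 0.441). Anxa11 averaged 40.3 ± 1.11 CPM in MLKL ASO mice and 51.8 ± 11.4 CPM in control ASO mice (edgeR adjusted p = 0.453). Without overlap, 1 of the 21 genes was higher and 2 were lower, beside 9.02% and 9.71% of all genes.

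ESCRT-associated factors outside the 32 members had 5 of 16 genes above 0. At an unadjusted p under 0.05, 2 were higher and 3 lower (4.89% and 6.96% of all genes). The median was -0.09 with all mice and 0.05 without mouse 1608. Tom1, an endosomal adaptor that binds ubiquitin, averaged 22.5 ± 1.25 CPM in MLKL ASO mice and 29.7 ± 1.47 CPM in control ASO mice (SD, n = 3 each; edgeR adjusted p = 0.342). Gga3, an adaptor between the Golgi and endosomes, averaged 10.2 ± 1.38 CPM in MLKL ASO mice and 16.2 ± 3.44 CPM in control ASO mice (edgeR adjusted p = 0.352). Arrdc1, an arrestin-like protein that recruits TSG101, averaged 47.9 ± 3.53 CPM in MLKL ASO mice and 60.8 ± 5.05 CPM in control ASO mice (edgeR adjusted p = 0.372). The 2 higher genes are named after their values were seen. Tom1l1, a relative of Tom1, had the largest log2 fold change of the list, 0.87, and averaged 33.7 ± 11 CPM in MLKL ASO mice and 18.5 ± 6.08 CPM in control ASO mice (edgeR adjusted p = 0.38). Mitd1, which binds ESCRT-III at the midbody, averaged 23.6 ± 1.38 CPM in MLKL ASO mice and 18.2 ± 2.0 CPM in control ASO mice (edgeR adjusted p = 0.386). The groups did not overlap in these 5 genes, 2 higher and 3 lower, beside 9.02% and 9.71% of all genes. The 5 were named for a small p or after their values were seen.

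Genes of cytokinesis and abscission, the step in which ESCRT-III cuts dividing cells apart, lay above 0 in 14 of 14 cases. Their median log2 fold change was 0.76, and 7 were higher and 0 lower with an unadjusted p below 0.05 (4.89% and 6.96% of all genes). The groups did not overlap in 4 of the 14, all higher, beside 9.02% of all genes. Anln, a scaffold of the cleavage furrow, measured 30.7, 38.9 and 25.1 CPM in MLKL ASO mice, against 17.3, 13.3 and 9.18 CPM in control ASO mice, without overlap (log2 fold change 1.25, SE 0.27, 95% interval 0.63 to 1.88; edgeR unadjusted p = 0.00197, adjusted p = 0.264). Prc1, which bundles microtubules of the midzone, averaged 79.4 ± 11.7 CPM in MLKL ASO mice and 35.7 ± 14.3 CPM in control ASO mice (SD, n = 3 each; edgeR adjusted p = 0.301). Ect2, an activator of RhoA at the furrow, averaged 27.6 ± 5.97 CPM in MLKL ASO mice and 14.6 ± 3.71 CPM in control ASO mice (edgeR adjusted p = 0.319). Cep55, which brings Tsg101 and ALIX to the bridge and was singled out after its values were seen, averaged 9.59 ± 1.03 CPM in MLKL ASO mice and 7.25 ± 3.53 CPM in control ASO mice, with overlap. Erythroid markers lay on the same side: 12 of 12 were above 0, none was at 0 in any library, and their summed level was 1271 to 2821 CPM in MLKL ASO mice and 784 to 1897 CPM in control ASO mice. Megakaryocyte and platelet markers lay above 0 in 10 of 10 cases (median 1.04), with 1377 to 2876 CPM in MLKL ASO mice and 106 to 1542 CPM in control ASO mice. Neutrophil markers did so in 8 of 8 cases, with 720.0 to 1983 CPM in MLKL ASO mice and 233 to 1824 CPM in control ASO mice. None of either list was at 0 in any library. With the erythroid list as a covariate the median of the abscission genes was 0.21, and with the T and NK cell list it was 1.52. The part of these cells in the result was not tested further.

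Exosome genes had 7 of 12 above 0 and a median of 0.07, and 0 were higher and 2 lower with an unadjusted p below 0.05 (4.89% and 6.96% of all genes). Smpd3, a sphingomyelinase, averaged 0.0853 ± 0.0576 CPM in MLKL ASO mice and 0.528 ± 0.193 CPM in control ASO mice (SD, n = 3 each, edgeR adjusted p = 0.327). It had the lowest level of the list, at 0.0974, 0.136 and 0.0226 CPM in MLKL ASO mice, and rests on few reads there. Sdc4, a syndecan carried as cargo, averaged 106 ± 19.6 CPM in MLKL ASO mice and 152 ± 29.3 CPM in control ASO mice (edgeR adjusted p = 0.38). Sdcbp (syntenin), the partner of ALIX in exosome formation, averaged 986 ± 44.2 CPM in MLKL ASO mice and 882 ± 65.9 CPM in control ASO mice (edgeR adjusted p = 0.596). Without overlap, 1 of the 12 genes was higher and 1 lower, beside 9.02% and 9.71% of all genes.

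Endosomal PI3P and retromer genes had 5 of 15 above 0 and a median of -0.05, and 0 were higher and 2 lower with an unadjusted p below 0.05 (4.89% and 6.96% of all genes). The 2 lower genes, Uvrag and Pik3r4, encode subunits of the lipid kinase complexes that make the PI3P bound by HRS. Uvrag averaged 33.3 ± 5.81 CPM in MLKL ASO mice and 53.0 ± 3.03 CPM in control ASO mice (SD, n = 3 each; edgeR adjusted p = 0.287). Pik3r4 averaged 28.8 ± 2.71 CPM in MLKL ASO mice and 43.5 ± 5.43 CPM in control ASO mice (edgeR adjusted p = 0.294). Rab5b, an early endosome GTPase, averaged 71.8 ± 6.99 CPM in MLKL ASO mice and 96.7 ± 23.1 CPM in control ASO mice (edgeR adjusted p = 0.435). Without overlap, 1 of the 15 genes was higher and 3 were lower, beside 9.02% and 9.71% of all genes. Mean log2 CPM of the list was 6.72, 6.672 and 6.735 in MLKL ASO mice. In control ASO mice it was 6.75, 6.843 and 6.884, without overlap.

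Necroptosis core genes other than Mlkl had 3 of 11 above 0 and a median of -0.05, and 0 were higher and 0 lower with an unadjusted p below 0.05 (4.89% and 6.96% of all genes). Cyld, a deubiquitinase upstream of the necrosome, averaged 55.6 ± 1.4 CPM in MLKL ASO mice and 65.8 ± 5.93 CPM in control ASO mice (SD, n = 3 each; edgeR adjusted p = 0.446). Tradd, an adaptor of the TNF receptor, averaged 44.0 ± 1.51 CPM in MLKL ASO mice and 49.8 ± 1.51 CPM in control ASO mice (edgeR adjusted p = 0.539). In these 2 of the 11 genes the groups did not overlap, both lower, beside 9.71% of all genes. None of the 11 was higher without overlap, beside 9.02% of all genes.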

How the data were processed

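Bulk RNA sequencing was deposited for 6 mice, 1 library each, and each mouse is a replicate. Per the labels, the mRNA library kit was directional. Per the submitters' processing notes, the authors used fastp 0.20.1, Salmon 1.3.0 and DESeq2. No source used here names a genome build or annotation. The deposited table holds estimated counts per gene symbol, of which 69.3% are not whole numbers (tolerance 1e-06). The authors' deposited DESeq2 table (54347 rows, 31121 without a symbol, 17 symbols on more than 1 row) holds, per the file headers, a mean normalised count (a signal), a log2 fold change and SE, the score of a Wald test, and raw and adjusted p-values. Its direction was settled from the data, with a Pearson r of 0.977 over 19728 genes against the log2 fold changes computed here, which come from the same libraries.

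The deposited estimated counts, rounded to integers, were tested with edgeR 4.0.16 in R 4.3.3: default expression filter, TMM scaling, two-sided quasi-likelihood test on all 19745 genes and Benjamini-Hochberg adjustment with a threshold of 0.05. CPM values are TMM-scaled, and log2 CPM used a prior count of 2. Ratios of related genes used an offset of 0.5 counts and an exact two-sided permutation test. Library totals were 59988846 to 87776706 estimated counts, and 95% intervals come from the fit. DESeq2 1.42.0 and limma 3.58.1 (voom with sample weights), other scalings and filters, an erythroid covariate and each mouse left out were alternatives; a T and NK cell covariate was added after seeing the data. The scripts were tested on simulated data. The 32 members, the 6 pathway lists and the 10 marker lists were chosen with earlier results of these data known. All members are described. Values of every mouse are given for members with an unadjusted p under 0.05, without overlap, or tied to membrane repair or MLKL by textbook knowledge. From each pathway list the 3 genes with the smallest p are named; others are marked where they appear. Transcript lengths and shared 31-base words come from GENCODE M21, and upstream sequences from RefSeq on GRCm38.p6.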

Additional observations from a re-analysis of the deposited data

How the results depend on the processing

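No paired analysis was possible because mouse numbers do not recur between the groups. Over all genes, 1 was called higher and 1 lower; the counts were 2 and 2 with upper quartile scaling, 5 and 4 with library totals, 224 and 291 with DESeq2, 9 and 13 with limma-voom, 4 and 3 without globin, immunoglobulin and T cell receptor genes, 0 and 0 with the erythroid covariate, and 6 and 2 with the T and NK cell covariate. Leaving out 1 mouse gave 0 to 10 higher and 0 to 9 lower. DESeq2 called 1 ESCRT gene lower. Mlkl passed the threshold with library totals (-2.54), DESeq2 (-2.54), limma-voom (-2.47) and without globin, immunoglobulin and T cell receptor genes (-2.55).

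The members' median was -0.11 with the T and NK cell covariate. The median of the necroptosis core was -0.0301 with library totals, -0.0162 with limma-voom, -0.13 with the erythroid and -0.0863 with the T and NK cell covariate. With the erythroid and the T and NK cell covariate, the median was 0.14 and -0.31 for calcium-triggered repair, 0.21 and 1.52 for cytokinesis and 0.0553 and -0.24 for endosomal PI3P and retromer genes, and the T and NK cell covariate gave -0.16 for exosome genes. Leaving out 1 mouse, it ranged from -0.20 to 0.0540 for ESCRT-associated factors, -0.10 to -0.0497 for the necroptosis core and -0.13 to 0.0023 for endosomal PI3P and retromer genes.

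Of 384 combinations of a member and a setting with all mice, 17 changed sign and 1 was called; of 192 that left out a mouse, 23 changed sign and 0 were called. The sign of 16 members was the same in every setting run. Vps4a was 0.0107 with upper quartile scaling, 0.0060 with library totals, 0.0825 with limma-voom and 0.17 with the erythroid covariate. Limma-voom gave 0.0009 for Vps37a and -0.0042 for Vps25. The erythroid covariate gave 0.0866 for Vps37a, -0.0969 for Ubap1 and 0.23 for Snf8. The T and NK cell covariate gave -0.19 for Stam, -0.15 for Stam2, 0.0954 for Chmp1a, -0.12 for Chmp2b, -0.0017 for Chmp4c, -0.17 for Chmp5, -0.0551 for Ist1 and -0.0602 for Pdcd6ip. Leaving out 1 mouse, the range was -0.0237 to 0.13 for Chmp2b, -0.0001 to 0.23 for Chmp5, -0.0380 to 0.16 for Ist1, -0.0741 to 0.11 for Pdcd6ip, -0.0139 to 0.46 for Stam, -0.27 to 0.12 for Snf8, -0.16 to 0.0010 for Chmp2a, -0.30 to 0.0138 for Chmp4b, -0.0314 to 0.16 for Vps25, -0.0558 to 0.0731 for Chmp6, -0.0998 to 0.16 for Vps4a, -0.0940 to 0.0694 for Ubap1 and -0.26 to 0.11 for Vps37a. For the log2 ratios it was -0.29 to 0.0030 for Chmp2a:Chmp2b, -0.0410 to 0.16 for Stam:Stam2 and -0.15 to 0.0760 for Vps4a:Vps4b. The cause of these changes was not tested.

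With 3 mice a group, small differences cannot be resolved, and exact tests cannot go below 0.1. Chmp4c, Mvb12b, Chmp4b, Ptpn23 and Snf8 had the fewest counts of the members, and the part of depth in their spread was not tested. Genes that share sequence with a copy or an opposite-strand partner are uncertain, since estimated counts divide such reads.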
